A study of Mus musculus with 14 samples.

Results

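DNA replication and mitosis genes were described in the gastrocnemius muscle of 14 mice bearing a tumor, as a set of 38 genes chosen by gene symbol, 18 of DNA replication and 20 of mitosis. Values were available for 36 of them, 17 replication and 19 mitosis genes, of the 19505 genes measured. Mcm7 and Ccnb1 had no probeset with a single gene symbol and were not analysed here. The mice were C57BL/6 males that all carried subcutaneous Panc02 tumors, a murine pancreatic ductal adenocarcinoma line. The HMB group (7 mice) ate the AIN-93G control diet supplemented with β-hydroxy-β-methylbutyrate, a metabolite of leucine, from before the tumor cells were injected, and the control group (7 mice) ate AIN-93G alone. RNA of each muscle was hybridized to 1 Clariom S array. The treatment text of the labels also names anti-PD1 for these mice, while the sample titles give diet alone, so the labels do not settle whether either group received it. The study calls the muscle donors control and control + HMB mice and names its anti-PD1 groups separately. By its methods, every mouse of that experiment was injected with either anti-PD1 or an isotype control. Transplanted Panc02 tumors do not cause muscle wasting, by the study's own account, and the age of the mice at dissection is not given in the labels. Control 7 stood apart from the other arrays, with a median correlation of 0.960 with the rest over all genes, against 0.977 to 0.986 for the others. The differences of both classes are given with and without it and the 3 other arrays singled out below.

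Replication genes are copied into RNA as a cell passes from G1 into S phase, largely under E2F transcription factors. Their products license origins, unwind DNA, make nucleotides and synthesize the new strands. Mitosis genes peak later, in G2 and M phase, under the MuvB complex with B-MYB and FOXM1, which reads a promoter element called the cell cycle genes homology region (CHR), often near CCAAT boxes bound by NF-Y. Mature muscle fibers have left the cell cycle, so RNA of either class in a muscle can come from satellite cells, endothelium, fibroblasts, immune cells or any other dividing cell in the sample. In such bulk tissue, fewer cells of a type and less RNA per cell cannot be told apart.

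The promoters showed how the 2 classes differ in sequence. RefSeq windows of 300 bases, 250 before and 50 after the start of the gene, were at hand for 30 of the 36 measured members. They were searched on both strands for 4 E2F words, 2 CHR words and the CCAAT box. The E2F words were TTCCCGC and its relatives TTGGCGC in one form, TTCGCGC in another and TTGCCGC in the last. The CHR words were TTTGAA and the variant TTCGAA. An E2F word can overlap its own reverse or a reversed CCAAT, so shares are of genes with at least 1 match. An E2F word was present in 10 of 14 replication genes (71.4%) and 2 of 16 mitosis genes (12.5%), beside 14.2% of all 15691 measured genes with a window. A CHR word was present in 3 of 14 replication genes (21.4%) and 13 of 16 mitosis genes (81.2%), beside 19.6% of all. CCAAT was found in 64.3% of the replication genes, 87.5% of the mitosis genes and 42.2% of all. A CHR word and CCAAT shared 1 window in 14.3% of the replication genes, 81.2% of the mitosis genes and 8.09% of all. Pcna, Tyms, Mcm2 and Cdc45 had no E2F word in these windows, of which Mcm2 and Cdc45 held a CHR word. Nusap1, Cenpe and Birc5 had no CHR word, which says only that the letters are not there. The motifs were searched because they are the textbook elements of these classes, and a match is not a bound site.

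**Figure D1:**
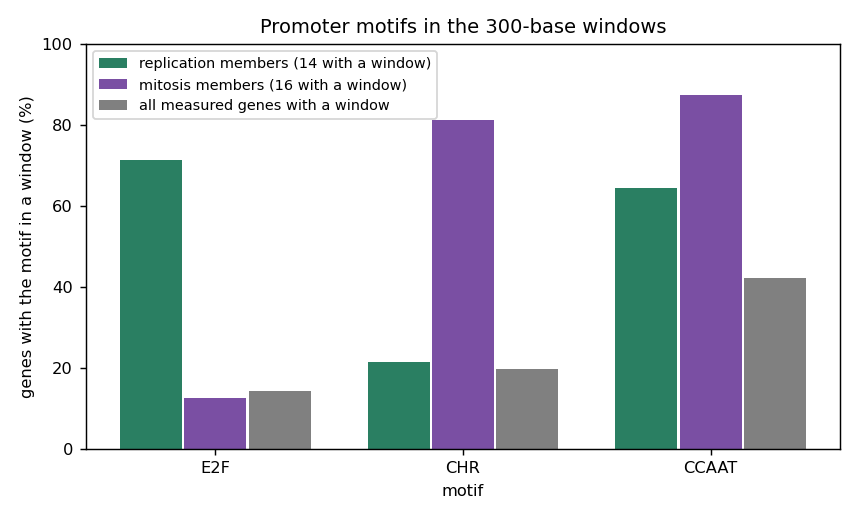
Percent of genes with at least 1 match to each motif (E2F, CHR, CCAAT) in a 300-base promoter window, for 14 replication members (green), 16 mitosis members (purple) and all 15691 measured genes with a window (grey). E2F words were found in 71.4% of replication members and CHR words in 81.2% of mitosis members.

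To show the elements in place, windows of 2 replication genes and 3 mitosis genes described below are printed 5′ to 3′ on the strand of the gene (RefSeq, GRCm38.p6), with every match to E2F, CHR or CCAAT words in capitals. Hells, at chr19:38930740-38931039 (plus strand), had 2 E2F words and Uhrf1, at chr17:56303087-56303386 (plus strand), had 1 with CCAAT boxes after it. Mki67, at chr7:135716330-135716629 (minus strand), had 2 CHR words that followed 3 CCAAT boxes, and 1 E2F word after them. Cdc20, at chr4:118437294-118437593 (minus strand), had a CHR word between 2 CCAAT boxes. In Kif23, at chr9:61946750-61947049 (minus strand), a reversed CCAAT box was followed by 1 CHR word.
Hells: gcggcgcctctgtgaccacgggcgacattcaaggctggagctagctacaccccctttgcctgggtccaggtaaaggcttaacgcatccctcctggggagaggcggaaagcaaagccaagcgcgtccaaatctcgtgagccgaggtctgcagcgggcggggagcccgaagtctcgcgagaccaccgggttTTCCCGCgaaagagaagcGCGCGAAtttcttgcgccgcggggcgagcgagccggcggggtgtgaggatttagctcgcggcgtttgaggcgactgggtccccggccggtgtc
Uhrf1: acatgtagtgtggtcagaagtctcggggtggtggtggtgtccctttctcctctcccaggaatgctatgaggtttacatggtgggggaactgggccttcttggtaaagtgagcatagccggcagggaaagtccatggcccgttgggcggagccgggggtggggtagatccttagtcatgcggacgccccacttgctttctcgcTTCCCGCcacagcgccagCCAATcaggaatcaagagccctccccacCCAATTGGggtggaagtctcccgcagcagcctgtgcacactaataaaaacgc
Mki67: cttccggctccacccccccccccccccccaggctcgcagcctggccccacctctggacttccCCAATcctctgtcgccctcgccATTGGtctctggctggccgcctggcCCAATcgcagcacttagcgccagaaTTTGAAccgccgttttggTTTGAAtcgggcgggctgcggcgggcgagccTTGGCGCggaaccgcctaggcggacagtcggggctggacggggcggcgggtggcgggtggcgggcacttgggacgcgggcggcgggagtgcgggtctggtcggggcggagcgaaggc
Cdc20: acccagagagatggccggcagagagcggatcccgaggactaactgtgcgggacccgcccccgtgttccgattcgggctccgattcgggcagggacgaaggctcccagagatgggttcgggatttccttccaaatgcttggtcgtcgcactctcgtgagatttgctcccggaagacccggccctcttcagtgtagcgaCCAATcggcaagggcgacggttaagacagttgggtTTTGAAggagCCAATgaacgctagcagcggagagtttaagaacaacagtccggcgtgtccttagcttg
Kif23: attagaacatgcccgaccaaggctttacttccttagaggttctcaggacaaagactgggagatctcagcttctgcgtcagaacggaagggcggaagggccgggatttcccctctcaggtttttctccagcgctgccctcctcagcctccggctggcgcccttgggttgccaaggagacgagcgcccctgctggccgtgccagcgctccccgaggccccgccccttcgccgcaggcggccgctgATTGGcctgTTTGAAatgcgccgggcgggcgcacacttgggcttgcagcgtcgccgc

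Few members lay above the background of the arrays. The deposited values were read as log2, and background was taken from 5222 control probesets in introns, whose 95th percentile was 10.53 to 10.87 and whose median was 6.25 to 6.67 over the arrays. In all, 28.7% of genes exceeded that percentile on at least 1 array. Of the members, 2 of 17 replication genes and 0 of 19 mitosis genes did. Pcna, the sliding clamp that holds DNA polymerases on their template, was above it on all 14 arrays, at 12.57, 12.70 and 12.83 (lowest, median and highest) in HMB muscles and 12.47, 12.80 and 13.08 in control muscles. The groups overlapped throughout. Rrm1, the large subunit of ribonucleotide reductase, was above it on 13 arrays, at 11.21, 11.58 and 11.73 in HMB muscles and 10.77, 11.28 and 11.74 in control muscles. The exception was control 7, the lowest of the 14 arrays for this gene.

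Against the intron median, a lower mark, the classes also separated. Mcm2 and Mcm4 of the replicative helicase, Cdc45 that activates it, Pcna and Rrm1 were above the median on all 14 arrays, and so was a single mitosis gene, Aurka. Gins2, a partner of Cdc45, and Cdc6, which loads the helicase, lay under it on all 14, as did 4 mitosis genes, Cdk1, Cdc20, Cenpf and Ube2c. Of the replication genes 10 crossed the median between arrays and of the mitosis genes 14 did. Over all genes, 45% were above it on all arrays, 40.6% on none and 14.3% on some. For 6 of 17 replication genes and 15 of 19 mitosis genes, neither the HMB nor the control mean reached the lowest intron median, as for 47.1% of all genes.

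**Figure D2:**
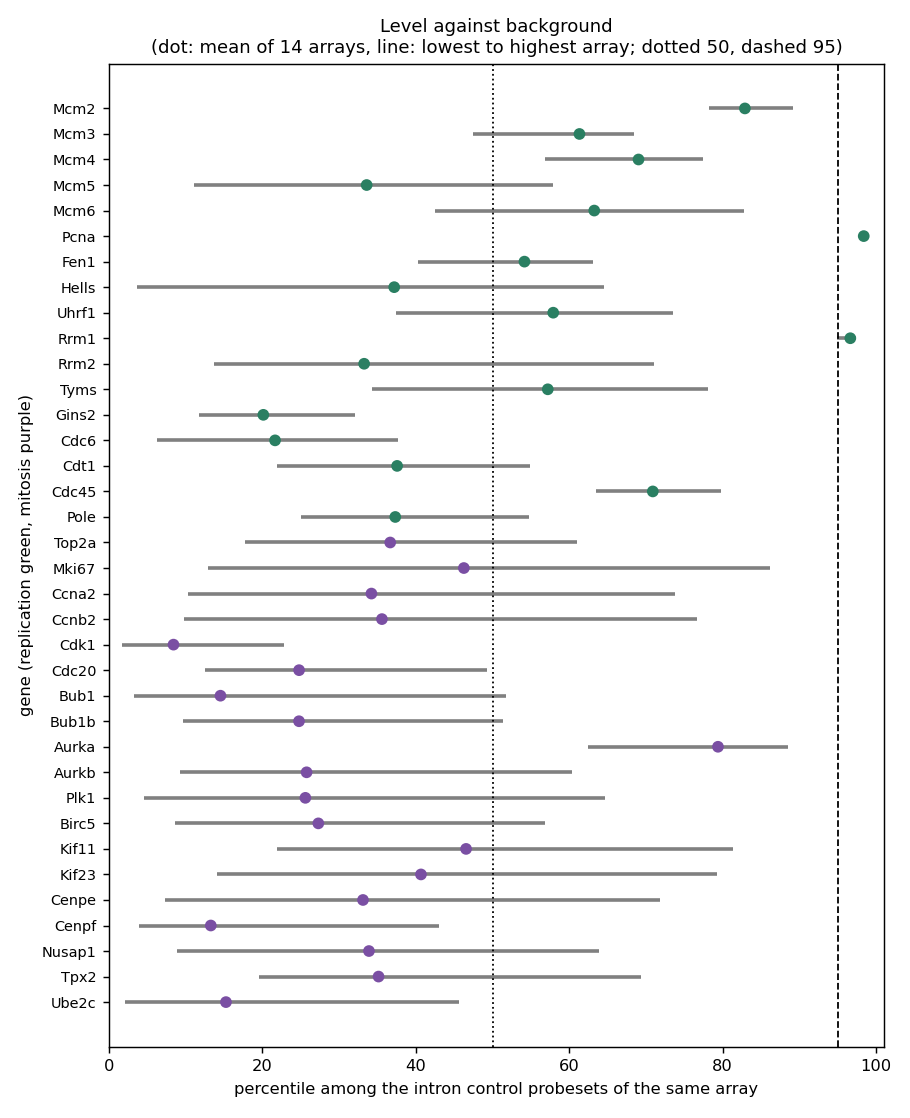
Level of each measured member as its percentile (x axis) among the intron control probesets of the same array, with the mean of 14 arrays as a dot and the lowest to highest array as a line. Pcna and Rrm1 sit at the right, past the dashed 95th percentile, and most mitosis members (purple) lie left of the dotted 50th on average.

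The comparison of diets asked whether HMB was accompanied by a difference in cell cycle RNA in the muscle of tumor-bearing mice. No member differed after adjustment (limma, Benjamini-Hochberg over 19505 genes), and neither did any other gene, 0% of those tested. Without adjustment, 885 genes passed 0.05 by limma and 853 by the methods' t statistic, which also left 0 after adjustment. At that unadjusted mark 1 member, Hells, was lower and 1, Fen1, was higher in HMB muscles, against 2.19% of all genes lower and 2.35% higher. Of the 36 members, 0 had groups that did not overlap, as against 0.0974% of all genes. By mean alone, 11 of 17 replication genes (64.7%) and 17 of 19 mitosis genes (89.5%) had the smaller value in HMB muscles, against 48.3% of all genes. With each array centred on its own median these became 9 of 17 and 15 of 19. The median difference over all genes was then 0.08. The share of all genes lower was not counted in that setting, so 48.3% is no measure for the centred counts. Members of a class vary together over the arrays, as shown further on, so these counts are not independent. The median difference, HMB minus control, was -0.12 log2 units for the replication genes and -0.49 for the mitosis genes, beside 0.01 over all genes.

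Fen1, the flap endonuclease that trims Okazaki fragments, had the smallest p of the members. Its values were 6.78, 7.12 and 7.27 in HMB muscles and 5.75, 6.34 and 6.79 in control muscles. Every one of the 7 HMB values exceeded the average of the controls. The groups overlapped only where control 2 (6.79) passed HMB 5 (6.78). The difference was 0.77 ± 0.16 log2 units (limma SE, n = 7 each), with an adjusted p of 0.670. The control mean, 6.28 ± 0.36 (SD), lay within the range of the intron medians.

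Hells, a chromatin remodeler of the SNF2 family needed for DNA methylation, had the largest difference. It measured 2.72, 4.80 and 6.81 in HMB muscles, against 4.29, 6.68 and 7.20 in control muscles. HMB 4 was the only HMB array above the control mean, and control 5 the only control array under 6. The means were 4.64 ± 1.31 in HMB and 6.36 ± 0.97 in control muscles (SD), a difference of -1.73 ± 0.56 (SE) that did not pass adjustment (limma adjusted p = 0.990). Hells exceeded the intron median on 1 HMB and 5 control arrays, and its HMB mean lay under the lowest intron median, 6.25. Uhrf1, which brings the maintenance DNA methyltransferase to newly copied DNA, measured 5.68, 6.55 and 7.95 in HMB muscles and 5.98, 7.36 and 8.0 in control muscles (difference -0.65 ± 0.34 SE, adjusted p = 0.990). Its groups spanned nearly the same range, with 6 of 7 HMB arrays under the control mean.

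The other replication genes differed by less than 0.5 log2 units either way. Among the helicase subunits Mcm3, Mcm4, Mcm5 and Mcm6 the differences were -0.21, -0.33, -0.48 and -0.46, and for Mcm2 0.04. Those of the loading and activating factors Cdc6, Cdt1, Cdc45 and Gins2 were -0.38, 0.16, 0.14 and -0.01, and that of Pole, the catalytic subunit of polymerase epsilon, was -0.25. In nucleotide synthesis, Rrm1 differed by 0.25 ± 0.14 (SE, adjusted p = 0.990), Rrm2, its small subunit, by -0.12 and Tyms, thymidylate synthase, by 0.21. Pcna differed by -0.06. Thus the replication genes were spread on both sides of zero, and none passed the test.

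Most mitosis genes had the smaller mean in HMB muscles, with wide spreads. Kif23, a kinesin of the midbody that completes cytokinesis, measured 3.94, 4.88 and 6.89 in HMB muscles, against 4.48, 6.56 and 8.30 in control muscles (difference -1.04 ± 0.62 SE). Cdc20, which switches on the anaphase-promoting complex, measured 3.67, 4.59 and 5.32 in HMB muscles, against 3.89, 5.03 and 6.26 in control muscles (difference -0.51 ± 0.34 SE). Mki67, the gene of the proliferation marker Ki-67, measured 3.88, 5.54 and 8.71 in HMB muscles, against 4.97, 5.94 and 9.12 in control muscles (difference -1.11 ± 0.78 SE). These 3 had the smallest p of the class, each with an adjusted p of 0.990, and in each the lowest array of the 14 was an HMB array and the highest a control array.

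Among the mitotic kinases, Aurka, which builds spindle poles, measured 7.15, 8.52 and 9.47 in HMB and 7.89, 8.56 and 9.37 in control muscles (difference -0.04 ± 0.34 SE). Cdk1, the kinase that drives entry into mitosis, measured 2.55, 2.84 and 4.50 in HMB and 2.30, 3.52 and 4.66 in control muscles (difference -0.38 ± 0.36 SE). Aurkb, of the chromosomal passenger complex, measured 3.47, 4.08 and 6.94 in HMB and 4.32, 4.70 and 6.94 in control muscles (difference -0.64 ± 0.51 SE). In Cdk1 and Aurkb 1 HMB array, HMB 4, stood far above the other 6, while in Aurka that array was the lowest of all 14. Ube2c, the ubiquitin-conjugating enzyme that works with the anaphase-promoting complex, measured 2.62, 3.27 and 5.74 in HMB and 2.42, 3.79 and 6.20 in control muscles (difference -0.63 ± 0.57 SE), again with HMB 4 apart. Of the remaining mitosis genes, Bub1 (0.21), a checkpoint kinase, and Ccnb2 (0.07), cyclin B2, had the larger mean in HMB muscles, and the others differed by -0.63 (Birc5) to -0.01 (Cenpe). Without HMB 4 alone, Bub1 was at -0.22 and Ccnb2 at -0.38. Bub1 also changed sign without HMB 2, and Ccnb2 without any of 4 other arrays.

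Single arrays carried much of these differences. With each array left out in turn, 4 of 17 replication genes (Mcm2, Rrm2, Gins2 and Cdt1) and 6 of 19 mitosis genes (Ccnb2, Bub1, Aurka, Kif11, Cenpe and Cenpf) changed sign at least once. Rrm2 was at -0.54 without HMB 4 and 0.10 without HMB 2, Tyms at 0.03 without control 7 and 0.45 without control 6, and Cdt1 at -0.01 without control 4 and 0.40 without control 7. Among mitosis genes, Mki67 was at -0.72 without control 3 and Cdc20 at -0.30 without control 6. Cdk1 was at -0.18 without control 3 and -0.63 without HMB 4, Aurkb at -0.33 without control 6 and -1.06 without HMB 4, and Ube2c at -0.28 without control 3, -0.40 without control 6 and -1.0 without HMB 4. The difference neither changed sign nor moved by over 1.5 times for 4 replication genes, Fen1, Hells, Uhrf1 and Rrm1, and 1 mitosis gene, Kif23.

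**Figure D3:**
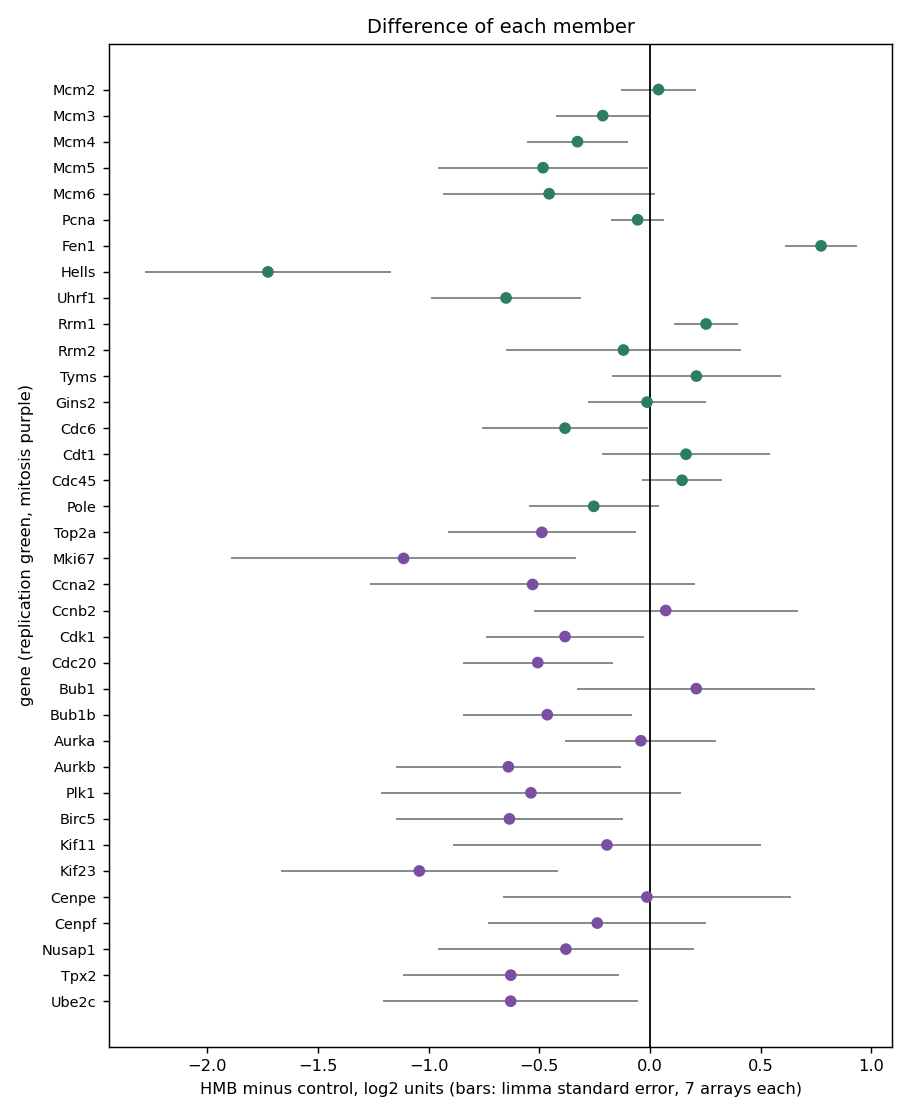
Difference of each measured member, HMB minus control, in log2 units (x axis) with its limma standard error as a bar (7 arrays each), replication in green and mitosis in purple. Fen1 at 0.77 and Hells at -1.73 lie farthest out among replication members, and 17 of 19 mitosis members lie left of zero with bars of up to 0.78.

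The mitosis genes varied widely, and most were high on the same few arrays. The mean of the 19 mitosis genes was 6.72 on HMB 4, while the other 6 HMB muscles lay at 4.35 to 5.11. In the control group it was 6.63 on control 3 and 6.66 on control 6, against 4.48 to 4.91 on 4 arrays and 5.40 on control 7. On HMB 4, control 3 and control 6, 14, 13 and 11 of the 19 genes exceeded the intron median, and on the other 11 arrays 1 to 4 did. HMB 4 was among the 3 highest arrays for 17 of the 19 genes, control 3 for 17 and control 6 for 14. Mki67, for example, was 8.71, 9.12 and 8.56 on these arrays and 7.95 on control 7, with all others at 3.88 to 6.04. Plk1, a kinase of spindle and cytokinesis, was 6.66, 7.23 and 7.21, with all others at 2.92 to 4.79.

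Replication genes followed the same arrays less closely. The mean of the 17 was 7.66 on HMB 4, while the other 6 HMB muscles lay at 6.59 to 7.06. It was 7.46, 7.54 and 7.33 on control 3, control 6 and control 7, against 6.57 to 7.05 on the other control arrays. HMB 4 was among the 3 highest arrays for 10 of the 17 genes, control 6 for 9, control 7 for 7 and control 3 for 6. Rrm2 and Mcm6 were of this kind. Rrm2 was 7.76 on HMB 4, 6.57 on control 3 and 6.44 on control 6, with the others at 3.95 to 5.71. Mcm6 was 8.83 on HMB 4 and 8.10, 8.61 and 8.55 on control 3, control 6 and control 7, with the others at 5.91 to 7.81. Rrm1 and Mcm2 did not follow this pattern. Pcna did so in part, with 13.08, 12.92 and 12.80 on control 7, control 6 and control 3, beside 12.93 on control 1. On HMB 4 Pcna was 12.74, under HMB 6 (12.83) and HMB 5 (12.79).

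As a description, deviations from the group means were correlated between members over the 14 arrays. The median Pearson r was 0.654 over the 171 pairs of mitosis genes, 0.199 over the 136 pairs of replication genes and 0.347 between the classes, beside 0.00314 over all gene pairs. All pairs share the same arrays and are not independent. Without HMB 4, control 3 and control 6, left out after the data were seen, the medians were 0.147 and 0.0418 within the mitosis and replication genes. These 3 arrays, of both diets, were picked for high means of the same mitosis genes, so the drop in the mitosis median follows from that choice. It gives no share of the joint variation.

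**Figure D4:**
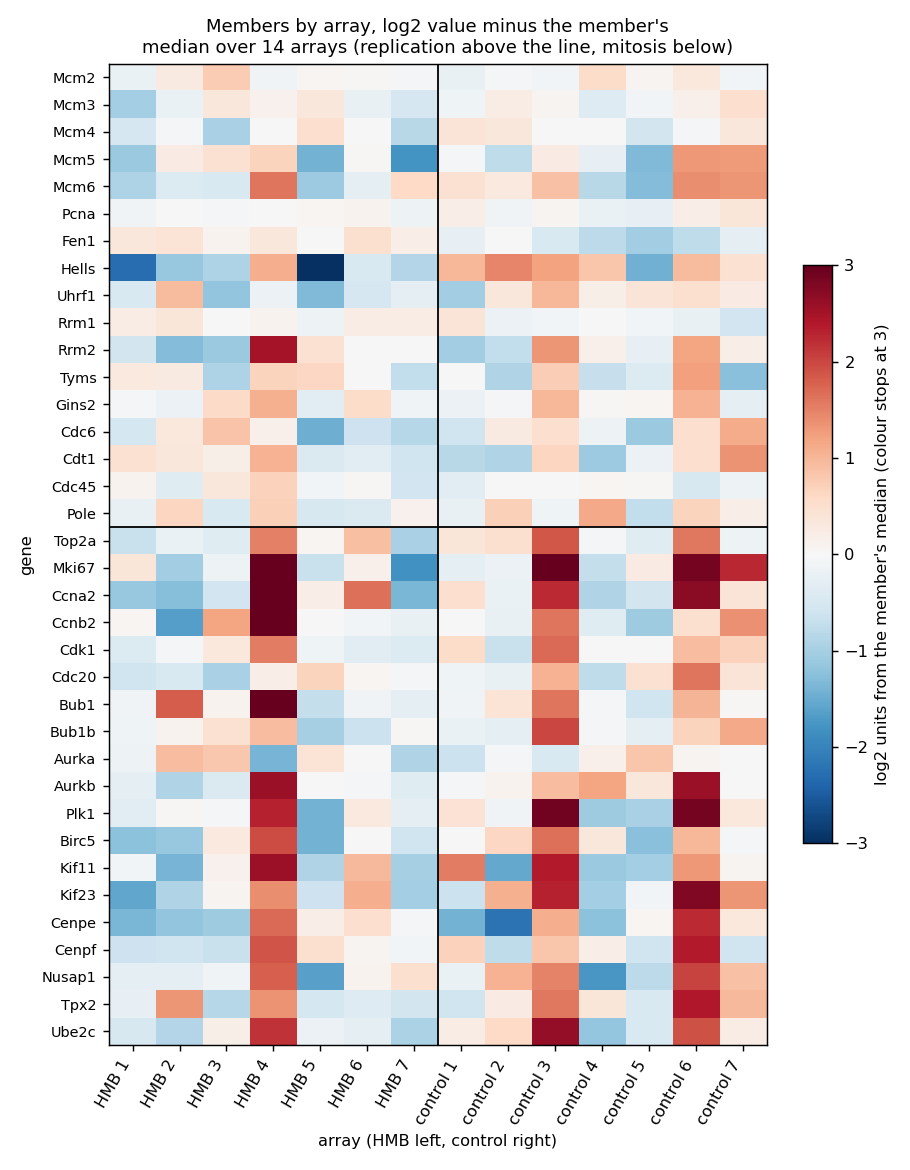
Each measured member (rows, replication above the horizontal line and mitosis below) on each array (columns, HMB left and control right), colored by its log2 value minus its own median over 14 arrays, with color ending at 3 units. HMB 4, control 3 and control 6 form red columns across most mitosis genes. On HMB 4 the exceptions are Aurka, which lies under its median, and Cdc20 (4.84), which lies near it.

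Because 1 HMB and 2 control arrays were high, the difference between diets rested partly on them. The mean of the 19 mitosis genes was 4.92 ± 0.84 in HMB and 5.35 ± 0.93 in control muscles (SD, n = 7 each), a difference of -0.43. It was -0.22 without control 3, -0.21 without control 6, -0.73 without HMB 4 and -0.21 without all 3. The median difference of the mitosis genes was -0.20 without control 3, -0.30 without control 6 and -0.26 without all 3, with 15 of 19 genes still lower in HMB muscles. Over all genes the median difference without all 3 was 0.02, and the share lower was not counted there. Without control 7 the difference of the means of the mitosis genes was -0.42. For the replication genes the mean was 6.93 ± 0.36 in HMB and 7.12 ± 0.35 in control muscles, a difference of -0.18. It was -0.30 without HMB 4, -0.13 without control 3, -0.11 without control 6, -0.15 without all 3 and -0.15 without control 7. Their median difference, -0.12, moved by over 1.5 times without any of 8 arrays, to -0.24, -0.05, -0.18 and -0.03 without control 1, control 3, control 5 and control 6, and to -0.04, -0.05, -0.07 and -0.26 without HMB 1, HMB 2, HMB 3 and HMB 4. Both class differences were smaller than the spread of the means between arrays of 1 group.

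Among markers of other cell types, 2 keratins of simple epithelia were highest on these arrays, as were some markers of other lists. Krt8 and Krt18, which pair in the filaments of such cells, were 8.88 and 8.68 on HMB 4, 8.09 and 8.77 on control 3 and 7.92 and 8.39 on control 6. Next came HMB 6 (6.58 and 6.44) and control 1 (5.73 and 5.34), and all other arrays had 4.50 or less of either. The mean of the mitosis genes was 5.11 on HMB 6 and 4.91 on control 1. On control 7 that mean was higher, 5.40, while Krt8 was 4.50 and Krt18 3.66 there. All 8 listed ductal epithelial markers were measured, and their mean was 4.03 to 6.44 in HMB and 4.32 to 5.77 in control muscles, highest on HMB 4. Of the 8, 7 were under the intron 95th percentile on all arrays. The other 6 markers are given here by range. Krt7, a further simple keratin, was 4.43 to 5.95 in HMB and 4.23 to 5.63 in control muscles, lowest of all arrays on control 6, and Krt19 was 2.49 to 3.31 and 2.57 to 4.10. Epcam was 2.82 to 5.44 and 3.04 to 4.56, Muc1 4.40 to 6.69 and 4.37 to 6.37, and Msln 2.46 to 3.92 and 2.76 to 3.47. Sox9 was 7.37 to 10.52 and 7.20 to 11.03, highest on control 2 and next on HMB 4, which also had the highest Epcam. Krt7, Krt19, Epcam and Msln were under the intron median on all arrays. Whether epithelial cells were in these samples was not tested, nor was any part of such cells in the mitosis values.

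**Figure D5:**
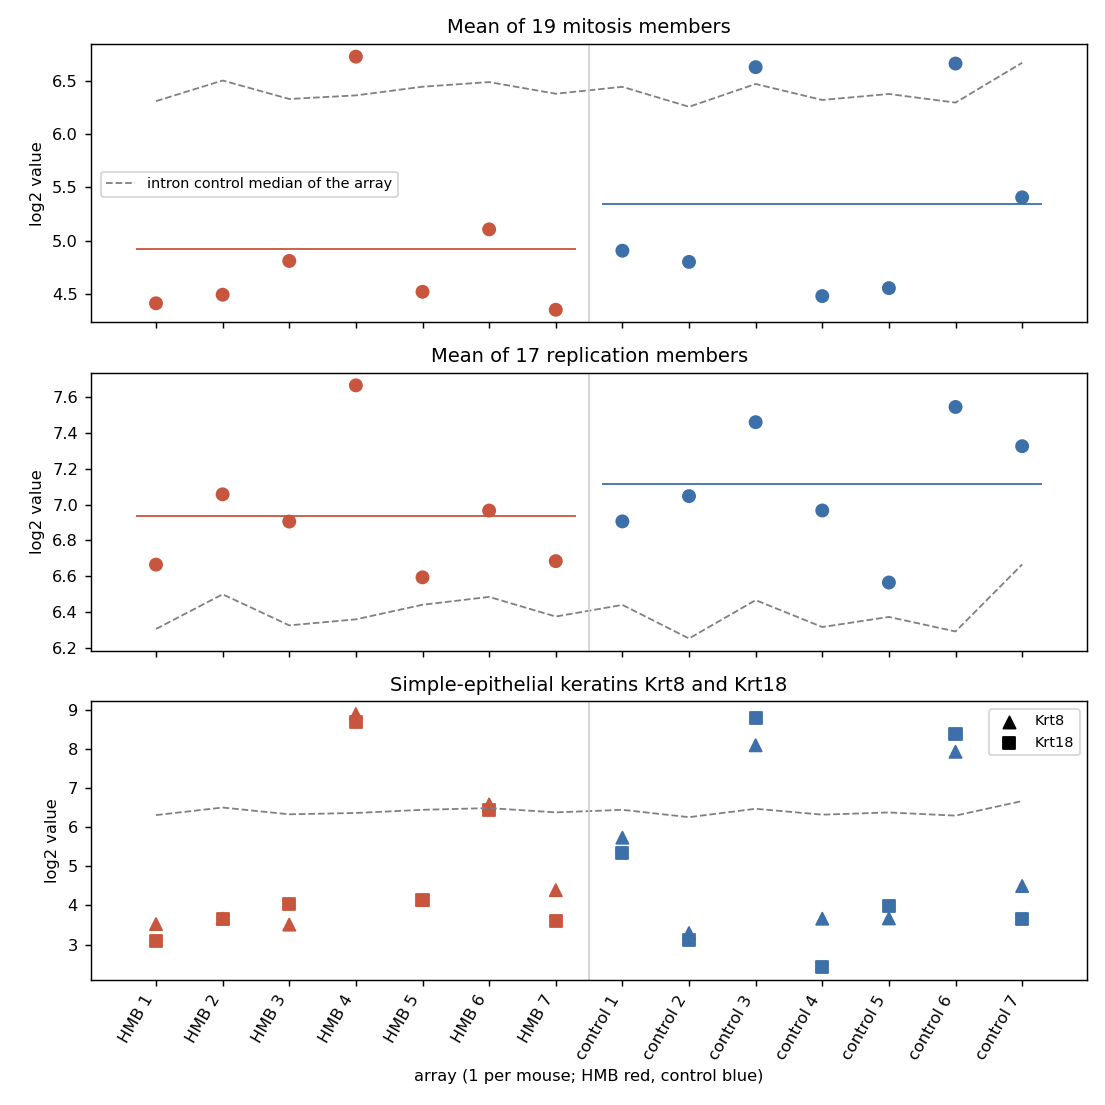
Mean log2 value of the 19 mitosis genes (top) and the 17 replication genes (middle), and the values of Krt8 and Krt18 (bottom), on each array (x axis, HMB red and control blue), with group means as horizontal lines and the intron median of each array dashed. HMB 4, control 3 and control 6 stand above their groups in the top panel, at 6.63 to 6.72, and carry the highest Krt8 and Krt18 values.

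Other lists were read the same way. Over all genes, 48.3% had the smaller mean in HMB muscles, and at the unadjusted mark 2.19% were lower and 2.35% higher. The 14 measured fibroblast and matrix markers averaged 9.93 to 11.62 in HMB and 10.49 to 12.04 in control muscles, highest on HMB 4 and control 3. This list was lower in HMB muscles by a similar amount as the mitosis genes, -0.43 on the list mean, with 13 of 14 genes lower. At the unadjusted mark 3 of the 14 were lower, Col4a2 (-0.67), Col15a1 (-0.92) and Col14a1 (-0.72), collagens of basement membrane and matrix, each with an adjusted p of 0.990. The 13 macrophage markers averaged 8.13 to 9.84 in HMB muscles, highest on HMB 4, and 8.40 to 9.28 in control muscles, highest on control 3 (9.28) and control 6 (9.04) with the others at 8.40 to 8.83. The 16 keratinocyte markers averaged 4.38 to 5.64 in HMB muscles, highest on HMB 4, and 4.27 to 4.55 in control muscles. Of these 15 had the larger mean in HMB muscles (0.29 on the list mean), 2 of them at the unadjusted mark and 0 after adjustment. The 13 B cell and 11 T cell markers averaged 3.65 to 3.93 and 4.47 to 5.21 in HMB muscles. In control muscles they reached 10.92 and 9.22 on control 7, the array where Mki67 was 7.95, and were at most 3.93 and 5.21 on any other array. All 13 B cell and all 11 T cell markers had the smaller mean in HMB muscles, -1.03 and -0.63 on the list means. Both differences rested on control 7. The other control arrays averaged 3.63 to 3.91 for B cell and 4.67 to 4.84 for T cell markers, much as the HMB arrays did. Germinal centre markers (7 measured, 5.65 to 6.25 in HMB and 5.48 to 6.29 in control muscles) and endothelial markers (11 measured, 10.53 to 11.00 and 10.38 to 10.99) had similar ranges in both groups. The 12 satellite cell markers averaged 7.34 to 7.78 in HMB and 6.83 to 8.05 in control muscles, wider in the controls, where control 3 was highest and control 7 lowest. The 15 muscle fiber markers were above the intron 95th percentile on all arrays, with means of 17.57 to 17.98 in HMB and 17.15 to 17.96 in control muscles, as the tissue label states. Of these 12 had the larger mean in HMB muscles (0.10 on the list mean). Control 2 was the lowest array of this list at 17.15, with the other control arrays at 17.73 to 17.96, inside the HMB range. Single markers of these lists also had HMB 4, control 3 and control 6 as their 3 highest arrays. Among them were Fn1 (15.65, 14.90 and 14.29), C1qa (10.50, 9.87 and 9.53) and Vcam1 (11.85, 10.37 and 10.80). Others of the same lists, such as Dcn, Adgre1 and Pax7, did not. The part of the other cell types in the members' values was likewise not tested.

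Wider lists of the same pathways were read as well. Of 75 other mitotic genes, all measured, 52 had the smaller mean in HMB muscles (69.3%, against 48.3% of all genes). Their median difference was -0.20, and 0 passed adjustment. At the unadjusted mark 1 passed with the larger value, Cenpn, a centromere protein, against 2.35% of all genes. Its means were 5.57 ± 0.63 in HMB and 4.65 ± 0.60 in control muscles (SD). Next in p was Spc24 of the kinetochore (difference 0.54 ± 0.27 SE). The highest levels were those of Pttg1, securin, and Bub3, of the spindle checkpoint, at 13.93 and 13.67 in HMB and 13.85 and 13.72 in control muscles. Of 55 other replication genes measured of 57, 27 had the smaller mean in HMB muscles, the median difference was 0.01 and the difference of the list means -0.05, and 0 passed either mark. Pole2 and Prim1, subunits of polymerase epsilon and of primase, had the smallest p (-0.71 ± 0.37 and -0.58 ± 0.31 SE), and Orc3 and Pold2, of the origin recognition complex and polymerase delta, the highest levels (13.71 and 13.40 in HMB, 13.76 and 13.39 in control muscles).

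Of 43 regulators of cell cycle entry and exit measured of 46, 17 had the smaller mean in HMB muscles, the median difference was 0.03 and the difference of the list means -0.03, and 0 passed either mark. Mybl2, which encodes B-MYB, and Cdk2, the kinase of S phase entry, had the smallest p (-0.52 ± 0.25 and -0.33 ± 0.19 SE). E2f6, a repressor of the E2F family, and Mdm2, which degrades p53, had the highest levels (14.82 and 13.97 in HMB, 14.81 and 13.92 in control muscles). Of the 43 regulators 17 exceeded the intron 95th percentile on at least 1 array, against 28.7% of all genes. Of the 55 other replication genes 9 did so, and of the 75 other mitotic genes 6 did.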

How the data were processed

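Gastrocnemius RNA of 14 mice (7 HMB, 7 control, grouped by sample title) was hybridized to Clariom S arrays. The deposited table holds log2 values of 28846 probesets as normalized by the authors. The scale was inferred from the values (highest 19.1 to 19.5, above what a scanner's range gives), so differences are in log2 units and no fold is given. Background correction, summarization and normalization are not given in the sources used here. Gene probesets with 1 symbol (19572) were kept and averaged per gene, which gave 19505 genes. No filter was applied. Groups were compared with limma 3.58.1 in R 4.3.3 (lmFit and eBayes, two-sided), with Benjamini-Hochberg adjustment over all genes and a threshold of 0.05. The fit was tested on simulated data. One array is one animal, and the number of animals limits the precision.

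A member counted as above background where it exceeded the 95th percentile of the 5222 intron controls of its array. Members and lists were chosen with earlier results of these data known, so no list was tested. Genes given in full were those above that percentile, the 3 of smallest p and 2 of highest level in each class, and those with a lone array in a group by Dixon's test. For other pathway lists these were the 2 of smallest p and the 2 of highest level. Others were named by role, or after their values were seen. Promoter windows came from RefSeq (GRCm38.p6). Alternatives were other normalization, filters, probeset choice, variance priors, array weights, a replicate block, the methods' t statistic and leaving out arrays.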

Additional observations from a re-analysis of the deposited data

Results flagged for a closer look

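In 6 of 76 groups of 7 values (the measured members and the means of both classes, in each diet group), 1 array lay apart from the other 6 by Dixon's test. Chance gives about 1 in 20. In HMB muscles these were all on HMB 4. Cdk1 was 4.50 there, against 2.55 to 3.28 on the other HMB arrays. Aurkb was 6.94, against 3.47 to 4.38. Ube2c was 5.74, against 2.62 to 3.73, and the mean of the 19 mitosis genes was 6.72, against 4.35 to 5.11. In control muscles, Hells was 4.29 on control 5, against 6.18 to 7.20, and Uhrf1 was 5.98 on control 1, against 7.18 to 8.0.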

How the results depend on the processing

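No gene passed adjustment under any alternative run. The median differences of both classes kept their sign under all alternatives, except that with only genes above the intron 95th percentile the replication median was 0.10, over 2 genes (Pcna and Rrm1), and no mitosis gene was left to give a value. With genes at or above the median level the medians were -0.01 over 10 replication genes and -0.04 over 1 mitosis gene, Aurka. Members above background numbered 30 of 36 with the intron median as the mark (59.4% of all genes) and 0 with its 99th percentile. Centring each array on its median turned the split of unadjusted calls over all genes to 242 lower of 873, against 427 of 885 as deposited, while the median of all genes became 0.08, and class medians were -0.05 and -0.42. Members lower at the unadjusted mark numbered 2 without control 1, 3 without control 4, 2 without HMB 2, 4 without HMB 4, 3 without control 7 and HMB 4 and 2 without HMB 4, control 3 and control 6, 0 under both filters on dim genes and 1 otherwise. Over all 19505 genes, lower calls in these leave-out settings numbered, in order, 449, 421, 419, 520, 576 and 511, against 427 as deposited. With genes at or above the median level they numbered 156, and with genes above the intron 95th percentile 70. Members higher numbered 2 without control 1, 0 with only genes above the intron 95th percentile and 1 otherwise. Without control 1, 924 of all genes passed the unadjusted mark in either direction. With the replicate block the class medians stayed -0.12 and -0.49, and 0 genes passed adjustment and 958 the unadjusted mark. Same-numbered arrays correlated at -0.07 to 0.12 and 2 of 7 pairs exceeded 0.1. Arrays of different numbers were not compared, so this does not settle whether the numbers pair the mice. Most members lay near or under the intron median, which limits what these arrays can show of them.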
